A study of Mus musculus with 8 samples.

Results

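The circadian clock genes Per1, Per2, Per3, Cry1, Cry2, Nr1d1, Nr1d2, Dbp, Ciart and Clock were followed in mouse quadriceps muscle. These 10 genes were taken by their symbols from the 47643 genes of the deposited table, and each symbol matched 1 gene. Nup210 is a membrane protein of the nuclear pore complex, and the study asked what its loss does to skeletal muscle. Polyadenylated RNA of quadriceps was sequenced from 4 Nup210-/- and 4 Nup210+/+ mice on the C57BL/6 background, with 1 library per mouse. The Nup210-/- mice carried a constitutive deletion, made by Hprt-Cre recombination of a floxed exon 2, so the deletion was not restricted to muscle fibers or to adult life, and the Nup210+/+ mice were the controls. No treatment is named for these mice. The animals were kept under light and dark cycles. The hour at which the muscles were taken, and the age and sex of these 8 mice, are not given in the sources used here, so their part in the values below was not tested.

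The mammalian clock is a feedback loop of transcription factors that runs in nearly every cell, muscle fibers included. CLOCK pairs with BMAL1, the product of Arntl, and the pair activates genes through E-box sequences. The PER and CRY proteins accumulate, enter the nucleus and repress that pair, while the nuclear receptors REV-ERBα and REV-ERBβ, the products of Nr1d1 and Nr1d2, repress Arntl. Dbp is a direct target that carries the rhythm to D-box sequences in other genes, and Ciart (also called Chrono) encodes a further repressor of CLOCK and BMAL1. The mRNAs of these genes rise and fall over the day, so a muscle frozen at a single moment shows 1 point of that cycle.

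The promoters of the loop carry the sequences through which it works, and those of 5 clock genes with a match are shown as examples. Cry2, with a variant E-box, also had a match and is not printed. Each run below is the 250 bases before a RefSeq start on GRCm38.p6, on the strand of the gene, with the searched motifs in capitals. The letters searched, on both strands, were CACGTG (the canonical E-box), CACGTT (a variant E-box, which reads AACGTG on the other strand), TTANGTAA (a D-box) and TAGGTCA (part of an element bound by REV-ERB and ROR receptors). The Ciart window (chr3:95882229-95882478, minus strand) holds 3 canonical E-boxes, which begin 116, 58 and 44 bases before the start.
Ciart: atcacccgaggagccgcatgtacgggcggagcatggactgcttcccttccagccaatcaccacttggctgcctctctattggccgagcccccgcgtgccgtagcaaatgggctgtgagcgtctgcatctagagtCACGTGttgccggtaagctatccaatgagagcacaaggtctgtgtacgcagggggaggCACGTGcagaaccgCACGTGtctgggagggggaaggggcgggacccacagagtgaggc
A Per1 window (chr11:69098699-69098948, plus strand) holds 1 canonical E-box, which begins 166 bases before its start, and another Per1 window, not printed, holds no match.
Per1: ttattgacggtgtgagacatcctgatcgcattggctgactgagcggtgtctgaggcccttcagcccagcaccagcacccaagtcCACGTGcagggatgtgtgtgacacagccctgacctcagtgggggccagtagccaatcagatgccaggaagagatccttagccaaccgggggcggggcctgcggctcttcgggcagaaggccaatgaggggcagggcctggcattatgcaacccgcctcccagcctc
The Cry1 window (chr10:85185055-85185304, minus strand) holds a variant E-box 79 bases and a canonical E-box 60 bases before the start.
Cry1: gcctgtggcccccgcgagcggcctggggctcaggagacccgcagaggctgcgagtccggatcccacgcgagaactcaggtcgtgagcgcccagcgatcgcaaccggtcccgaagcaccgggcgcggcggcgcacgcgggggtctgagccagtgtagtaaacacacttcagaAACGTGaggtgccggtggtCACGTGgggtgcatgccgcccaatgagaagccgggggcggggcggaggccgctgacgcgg
The Nr1d1 window (chr11:98775378-98775627, minus strand) holds 1 variant E-box, which begins 28 bases before the start.
Nr1d1: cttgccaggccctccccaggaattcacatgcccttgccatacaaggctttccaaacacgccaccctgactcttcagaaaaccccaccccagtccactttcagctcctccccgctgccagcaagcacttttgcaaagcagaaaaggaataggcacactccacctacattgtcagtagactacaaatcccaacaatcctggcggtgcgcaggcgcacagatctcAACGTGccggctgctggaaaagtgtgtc
The Per3 window (chr4:151044666-151044915, minus strand) holds 2 D-boxes, which begin 205 and 158 bases before the start.
Per3: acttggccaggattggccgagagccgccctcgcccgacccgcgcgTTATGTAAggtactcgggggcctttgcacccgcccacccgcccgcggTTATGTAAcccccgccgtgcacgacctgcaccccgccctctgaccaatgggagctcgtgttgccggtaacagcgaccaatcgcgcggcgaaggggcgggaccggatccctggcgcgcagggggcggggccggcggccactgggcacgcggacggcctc

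RefSeq windows were found for 9 of the 10 clock genes, with 12 windows in all, and Per2 was not matched. The canonical E-box was present in windows of 3 of the 9 genes (Ciart, Cry1 and Per1) and in 6.02% of the 32851 mouse promoter windows of the same length. The variant E-box was present for Cry1, Cry2 and Nr1d1, against 3.85% of all windows. The D-box was present for Per3 alone, against 2.06% of all windows, and TAGGTCA for none, against 2.23%. No match of 1 motif shared a base with a match of another in these windows. These matches are a description of the letters and were not tested as binding sites.

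Values are TPM, the transcript share of a library after correction for transcript length. For tests and intervals the libraries were also scaled by a median of ratios and taken as log2(scaled TPM + 1), where a fold change understates that of low genes. The library factors lay between 0.936 and 1.12, and 18185 to 19357 genes were above 0 in each library. The read depth is unknown from TPM. The table gave Nup210 itself 8.81 to 11.9 TPM in the libraries labelled Nup210-/- and 5.71 to 10.1 TPM in those labelled Nup210+/+, a log2 difference of 0.44 ± 0.15 (SE, limma, adjusted p = 0.231), and a sum over the whole gene does not check the deletion of exon 2. Defining genes of fast skeletal muscle (Ckm, Acta1, Myh4, Myh1 and Tnnt3) summed to 74140 to 79250 TPM in Nup210-/- and 67720 to 71360 TPM in Nup210+/+, as skeletal muscle should. All 5 had estimates above 0, with a median of 0.21, and 3 were under an unadjusted p of 0.05, beside 48.7% and 14.2% of all tested genes, and none passed (limma, lowest adjusted p = 0.264). That median is above the 0.12 of the 10 clock genes. The Nup210+/+ replicate 2 library stood apart, with 382 TPM summed over 6 markers of developing granulocytes, among them Elane, Ctsg and Mpo, against at most 2.12 TPM in each of the other libraries. The 10 leukocyte markers summed to 219 to 241 TPM in Nup210-/- and 249 to 493 TPM in Nup210+/+, and all 8 of them that were tested had estimates below 0, with a median of -0.59, and Cd52 passed (limma, adjusted p = 0.049), beside 51.3% of all genes below 0 and 0.112% past the test. Among them the B and T cell markers Cd79a and Cd3e were at most 0.34 and 0.38 TPM. In whole muscle, fewer cells of a type and less RNA per cell cannot be told apart, and the part of these markers in the clock values was not tested.

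All 10 clock genes were readily measured, over a 22.9-fold range of mean TPM. Dbp had the highest mean over the 8 libraries, 92.8 ± 15.7 TPM (SD, n = 8), followed by Nr1d1 at 84.6 ± 8.70 TPM and Nr1d2 at 70.2 ± 4.20 TPM. Thus the output factor and both REV-ERB genes formed the high end of these 10 in these libraries, whose hour is unknown. Of the other clock genes, Tef averaged 118.5 TPM and Bhlhe40 88.3 TPM. Per1 came next at 22.2 ± 4.35 TPM, below Nr1d2 in all 8 libraries, and Cry2 at 15.8 ± 2.31 TPM lay below Per1 in all 8. Ciart (9.47 ± 2.57 TPM), Per3 (9.40 ± 1.24 TPM), Clock (8.99 ± 0.63 TPM) and Cry1 (8.52 ± 1.40 TPM) were close to one another. Per2 was lowest, at 4.06 ± 0.93 TPM, and lay below Cry1 in all 8 libraries. The order was not resolved everywhere. Dbp exceeded Nr1d1 in 6 of 8 libraries and Nr1d1 exceeded Nr1d2 in 7 of 8. Ciart exceeded Per3 in only 3 of 8, Per3 exceeded Clock in 6 of 8, and Clock exceeded Cry1 in 4 of 8, so the order of these neighbours varied between libraries. No test of neighbouring genes was run.

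**Figure D1:**
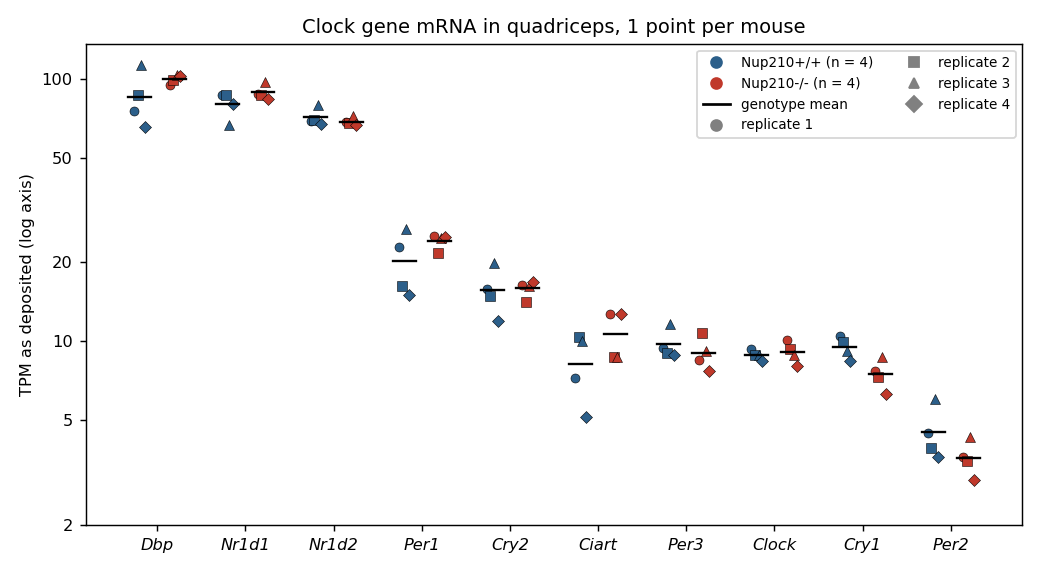
TPM of the 10 clock genes (log axis), ordered by mean level, with 1 point per mouse, a marker shape per replicate number and a line at each genotype mean (n = 4 and 4). The 3 genes at the left lie between 66.0 and 113 TPM, Per2 at the right lies between 2.97 and 6.03 TPM, and the genotypes overlap for each of the 10 genes.

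None of the 10 clock genes passed the genotype comparison (limma, adjusted p under 0.05 over the 14229 genes that averaged 0.5 TPM or more), where 0.112% of all tested genes did (0.0492% higher and 0.0633% lower). At an unadjusted p under 0.05 there were 3, with Per1 and Dbp higher and Cry1 lower in Nup210-/-, beside 14.2% of all genes (7.00% higher and 7.18% lower). Estimates were above 0 for 7 of the 10 and below 0 for Per2, Per3 and Cry1, beside 48.7% above 0 among all genes, with a median log2 difference of 0.12 for the 10 and -0.01 for all genes. On scaled TPM the genotypes did not overlap for 1 of the 10, Nr1d1, which was higher in Nup210-/-, beside 9.38% of all genes (4.78% higher and 4.60% lower). The share of 10 genes that a single gene makes is near that background. With 4 against 4 mice the smallest p that an exact permutation test can give is 0.0286.

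**Figure D2:**
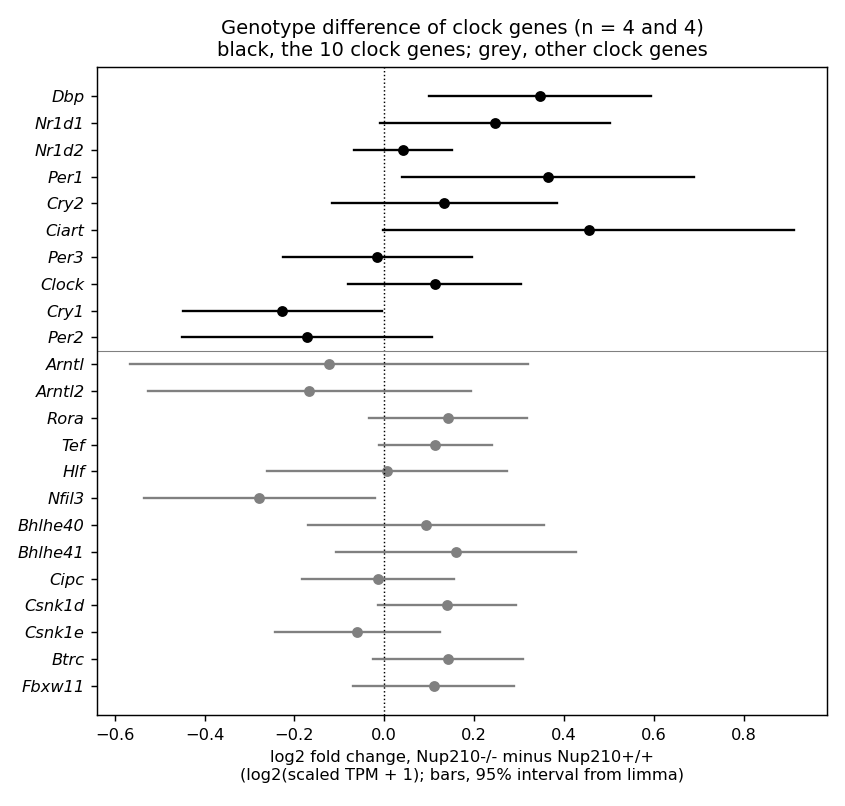
Log2 fold changes between Nup210-/- and Nup210+/+ (points) with 95% intervals (lines) for the 10 clock genes, in black, and other tested clock genes, in grey. Intervals of Dbp, Per1, Cry1 and Nfil3 lie to one side of 0 before adjustment, and no gene shown passed after adjustment.

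Among the activators, Clock was the steadier. Clock (chr5:76209868-76304792, minus strand, on mm10 as are all gene positions here) was at 10.1, 9.33, 8.91 and 8.05 TPM in Nup210-/- and 9.38, 8.90, 8.85 and 8.42 TPM in Nup210+/+. The Nup210-/- mice thus held both the highest and the lowest value, and the groups overlapped throughout. The estimate was 0.11 ± 0.09 on the log2 scale (SE, 95% interval -0.08 to 0.31, adjusted p = 0.571), and 0.06 without Nup210-/- replicate 1. Its partner Arntl was at 9.81, 7.51, 9.85 and 8.69 TPM in Nup210-/- and 12.7, 9.14, 7.64 and 13.3 TPM in Nup210+/+. Arntl was highest in Nup210+/+ replicates 1 and 4, and replicate 3 of the same genotype was near the lowest of all. Its difference was -0.12 ± 0.20 (SE, interval -0.57 to 0.32, adjusted p = 0.806), and it ran from -0.29 without Nup210+/+ replicate 3 to 0.02 without replicate 4.

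The 3 period genes had estimates of differing sign, and none passed the test. Per1 (chr11:69095217-69109960, plus strand), the period gene that also responds acutely to hormones and other signals, was at 25.2, 21.7, 24.8 and 25.0 TPM in Nup210-/- and 23.0, 16.3, 27.0 and 15.1 TPM in Nup210+/+. Both low values, in replicates 2 and 4, were from Nup210+/+ mice, and on TPM as deposited the highest value was too. The means were 24.2 ± 1.66 and 20.3 ± 5.61 TPM (SD, n = 4 each), with a log2 difference of 0.37 ± 0.14 (SE, interval 0.04 to 0.69, limma, unadjusted p = 0.0318, adjusted p = 0.301). The replicate 2 library with granulocyte transcripts was one of the low ones, and the estimate without it was 0.28. It was also 0.28 without Nup210+/+ replicate 4, and 0.47 without Nup210+/+ replicate 3. Per2 (chr1:91415982-91459324, minus strand) was at 3.64, 3.49, 4.31 and 2.97 TPM in Nup210-/- and 4.47, 3.92, 6.03 and 3.62 TPM in Nup210+/+. Its values overlapped between the genotypes, and the estimate was -0.17 ± 0.12 (SE, interval -0.45 to 0.11, adjusted p = 0.549), and -0.08 without Nup210+/+ replicate 3. Per3 (chr4:151003652-151044665, minus strand) was at 8.50, 10.7, 9.21 and 7.71 TPM against 9.41, 9.07, 11.6 and 8.92 TPM. Neither genotype stood above the other for Per3, with an estimate of -0.02 ± 0.09 (SE, interval -0.23 to 0.20, adjusted p = 0.956), which turned positive when Nup210-/- replicate 4 (0.04) or Nup210+/+ replicate 3 (0.03) was left out.

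The 2 cryptochrome genes, whose products are the main repressors of CLOCK and BMAL1, had estimates of opposite sign. Cry1 (chr10:85131700-85185064, minus strand) was at 7.69, 7.33, 8.72 and 6.29 TPM in Nup210-/- and 10.5, 9.96, 9.23 and 8.42 TPM in Nup210+/+. On TPM as deposited a single pair crossed, since Nup210-/- replicate 3 lay above Nup210+/+ replicate 4. On scaled TPM that Nup210-/- library (8.68) lay below Nup210+/+ replicate 4 (8.82) and above Nup210+/+ replicate 3 (8.22). The means were 7.51 ± 1.00 and 9.53 ± 0.91 TPM (SD, n = 4 each), and the log2 difference was -0.23 ± 0.10 (SE, interval -0.45 to -0.01, limma, unadjusted p = 0.0454, adjusted p = 0.34). The two-sided exact permutation p was 0.0571. Cry2 (chr2:92403646-92434043, minus strand) was at 16.4, 14.2, 16.3 and 16.9 TPM in Nup210-/- and 15.9, 14.9, 19.9 and 11.9 TPM in Nup210+/+. On TPM as deposited the Nup210+/+ values enclosed all of the Nup210-/- values, and the estimate was 0.13 ± 0.11 (SE, interval -0.12 to 0.38, adjusted p = 0.608). It was 0.05 without Nup210+/+ replicate 4 and 0.21 without replicate 3. The annotation places exons of D930015M05Rik opposite those of Cry2, and whether the authors' quantification used strand is not stated in the sources used here.

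The REV-ERB genes Nr1d1 and Nr1d2 differed in how far single mice departed. Nr1d1 (chr11:98767932-98775333, minus strand) was at 87.7, 86.6, 97.4 and 84.2 TPM in Nup210-/- and 87.1, 86.7, 66.6 and 80.5 TPM in Nup210+/+. On TPM as deposited the groups overlapped, with Nup210-/- replicate 3 highest and Nup210+/+ replicate 3 lowest. After scaling, the Nup210-/- libraries lay between 87.8 and 97.0 scaled TPM and the Nup210+/+ libraries between 59.3 and 84.8, with no overlap. The two-sided exact permutation p was 0.0286 on the scaled values, the smallest possible, and 0.2 on TPM as deposited, so that separation depends on the scaling. The log2 difference was 0.25 ± 0.11 (SE, interval -0.01 to 0.50, limma, adjusted p = 0.365). Without Nup210+/+ replicate 3 it was 0.12, with the 3 remaining control libraries between 83.7 and 84.8 scaled TPM. Exons of Thra lie on the opposite strand to Nr1d1.

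Nr1d2 (chr14:18204054-18239127, minus strand) was at 68.5, 67.9, 72.3 and 66.9 TPM in Nup210-/- and 69.3, 70.0, 79.7 and 67.2 TPM in Nup210+/+. Apart from Nup210+/+ replicate 3 all of these values lay within a narrow band. After scaling, that library was at 70.95 scaled TPM, within the 68.75 to 72.38 of the Nup210-/- libraries. The difference was 0.04 ± 0.05 (SE, interval -0.07 to 0.15, adjusted p = 0.719), and it was -0.05 on TPM as deposited, where the median of all genes was -0.09 in place of -0.01. The interval allows a ratio of 0.954 to 1.11 between the genotypes, the narrowest of the 10. The residual SD of Nr1d2 between mice, 0.0359 on the log2 scale, stood at percentile 0.5 among the 8388 tested genes that averaged 5 TPM or more, whose median was 0.136.

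Dbp (chr7:45705088-45710203, plus strand), the transcription factor that relays the clock to D-box genes, was at 94.7, 98.8, 104 and 103 TPM in Nup210-/- and 75.8, 86.8, 113 and 66.0 TPM in Nup210+/+. On TPM as deposited both extremes, replicates 3 and 4, were controls, and 3 of the 4 controls lay below every Nup210-/- value. After scaling, replicate 3 lay within the Nup210-/- range, at 101 scaled TPM. The means were 100.1 ± 4.18 and 85.5 ± 20.5 TPM (SD, n = 4 each). The log2 difference was 0.35 ± 0.11 (SE, interval 0.10 to 0.59, limma, unadjusted p = 0.0111), and the adjusted p of 0.211 was the lowest of the 10. The two-sided exact permutation p was 0.0857. Leaving out Nup210+/+ replicate 3 gave 0.45 (adjusted p = 0.0838), with 100.1 to 110 scaled TPM in Nup210-/- against 69.1 to 83.7 in the 3 remaining controls. Over all the alternatives the adjusted p of Dbp lay between 0.0838 and 0.441. Exons of Sphk2 lie on the opposite strand to Dbp.

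Ciart (chr3:95878503-95882251, minus strand), whose window holds the 3 E-boxes printed above, was at 12.7, 8.73, 8.76 and 12.7 TPM in Nup210-/- and 7.25, 10.4, 10.1 and 5.17 TPM in Nup210+/+. Each genotype split into a pair of higher and a pair of lower values, and the lower Nup210-/- pair lay between the 2 control pairs. The log2 difference of 0.46 ± 0.20 was the largest estimate of the 10 and had the widest interval (SE, interval -0.003 to 0.91, limma, adjusted p = 0.354). With each library left out it lay between 0.31, without Nup210+/+ replicate 4, and 0.57, without replicate 2.

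The list of 18 other clock genes held 15 that could be tested, since Npas2, Rorb and Fbxl21 had a mean TPM below 0.5. None passed (limma, lowest adjusted p = 0.316), and 1 was under an unadjusted p of 0.05. Their estimates had a median of 0.11, and 10 were above 0. Nfil3, a repressor that competes with Dbp at D-boxes, had the estimate furthest below 0. It was at 15.9, 15.1, 16.0 and 15.6 TPM in Nup210-/- and 25.8, 17.1, 21.0 and 19.0 TPM in Nup210+/+. All 4 Nup210-/- values lay below all 4 control values on TPM as deposited (two-sided exact permutation p = 0.0286), whereas the scaled values overlapped (p = 0.0857 by the same exact test). The log2 difference was -0.28 ± 0.11 (SE, limma, unadjusted p = 0.0373, adjusted p = 0.316), and -0.17 without Nup210+/+ replicate 1.

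The D-box activators related to Dbp showed smaller estimates, 0.11 ± 0.06 for Tef (SE, adjusted p = 0.391) and 0.01 ± 0.12 for Hlf (adjusted p = 0.986). Tef was above Dbp in all 8 libraries, with 114 to 122 TPM in Nup210-/- and 111 to 131 TPM in Nup210+/+, and it varied less. The receptor gene Rora, whose product activates Arntl at the elements where REV-ERB proteins repress it, had an estimate of 0.14 ± 0.08 (SE, adjusted p = 0.434). The E-box repressors Bhlhe40 and Bhlhe41 gave 0.09 ± 0.12 and 0.16 ± 0.12 (SE, adjusted p = 0.746 and 0.562). Bhlhe41 was at 0.06 without Nup210+/+ replicate 4 and 0.10 without Nup210-/- replicate 1, and Bhlhe40 lay between -0.003 without Nup210+/+ replicate 3 and 0.17 without replicate 2. The Bmal1 paralog gene Arntl2 gave -0.17 ± 0.16 and the CLOCK inhibitor gene Cipc gave -0.01 ± 0.07 (SE, adjusted p = 0.657 and 0.952). The casein kinases that phosphorylate PER proteins gave 0.14 ± 0.07 for Csnk1d and -0.06 ± 0.08 for Csnk1e (SE, adjusted p = 0.387 and 0.77). The ubiquitin ligase genes that control PER turnover gave 0.14 ± 0.07 for Btrc and 0.11 ± 0.08 for Fbxw11 (SE, adjusted p = 0.416 and 0.549). Btrc was the 1 gene of these 15 whose genotypes did not overlap on scaled TPM, at 5.94 to 6.14 in Nup210-/- and 4.91 to 5.70 in Nup210+/+, beside 9.38% of all genes.

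Individual mice departed from the gene means in different ways. Nup210+/+ replicate 3 held the highest control value, on scaled TPM, for 6 of the 10 clock genes, yet was the lowest of all 8 libraries for Nr1d1 and Clock. The same library had 6.80 scaled TPM of Arntl, the lowest of the 8, and it had the highest sum of adipocyte markers, 566 TPM against at most 354 TPM elsewhere. Nup210+/+ replicate 4 was the lowest of all 8 for 3 clock genes and highest for none, with 13.9 scaled TPM of Arntl. Nup210-/- replicate 4 was the lowest of all 8 for 3 and the highest of all 8 for 4. Thus no library was high or low for every clock gene.

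**Figure D3:**
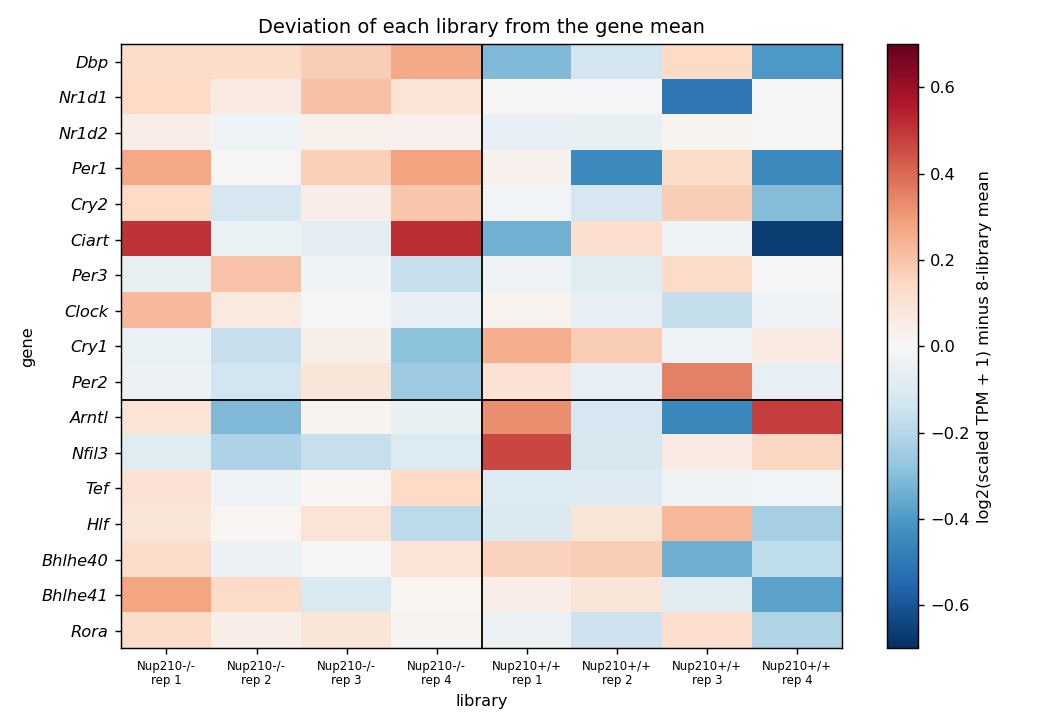
Deviation of log2(scaled TPM + 1) from the mean of the 8 libraries, by library (columns) and gene (the 10 clock genes above the line, other clock genes below). Nup210+/+ replicate 3 is blue for Nr1d1 and Arntl and red for Per2, and Nup210+/+ replicates 1 and 4 are red for Arntl and blue for Dbp.

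Because Arntl is expressed out of phase with many genes that it drives, each of the 10 was set against Arntl across the 8 libraries. Clock, the partner of Arntl, was included though that premise need not hold for it. None reached an adjusted p under 0.05 over the 10 exact tests, and 0 did so unadjusted, by Pearson's r or Spearman's rho. Pearson's r was negative for 7 of the 10 and positive for Cry1, Nr1d1 and Clock. For Dbp r was -0.72 (two-sided exact permutation p = 0.0503, adjusted 0.447) and rho was -0.48 (exact p = 0.243, adjusted 0.748). Leaving out Nup210+/+ replicates 3 and 4, the 2 libraries farthest from the median of Arntl, gave r = -0.53 for Dbp. For Nr1d1 r was 0.48 (exact permutation p = 0.255, adjusted 0.447) and rho was 0.31 (exact p = 0.462, adjusted 0.77), and r was 0.01 without those 2 libraries, so that relation rested on them. Taken as deviations from the mean of each genotype, r was -0.87 for Dbp (permutation p = 0.00531, adjusted 0.0531) and 0.80 for Nr1d1 (permutation p = 0.0124, adjusted 0.0619), and neither passed the adjustment. These deviations sum to 0 within each genotype while the permutation paired all 8 freely, so its p-values may be too small. For the deviations, r was not taken without Nup210+/+ replicates 3 and 4.

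The spread between mice was unequal in the genotypes for several clock genes. The SD on the log2 scale among Nup210-/- mice was below that among Nup210+/+ mice for 7 of the 10, or 70%, against 62.8% of all tested genes. Median SDs were 0.131 and 0.196 for the 10 and 0.136 and 0.172 for all genes. Dbp had an SD of 0.0633 in Nup210-/- and 0.238 in Nup210+/+, Nr1d1 0.0616 and 0.250, and Per1 0.127 and 0.307. On TPM as deposited, the coefficient of variation of Dbp was 4.18% in Nup210-/- and 23.9% in Nup210+/+. Per3, Cry1 and Clock went the other way. A smaller spread in Nup210-/- was thus seen in most tested genes, and no test of variances was run.

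**Figure D4:**
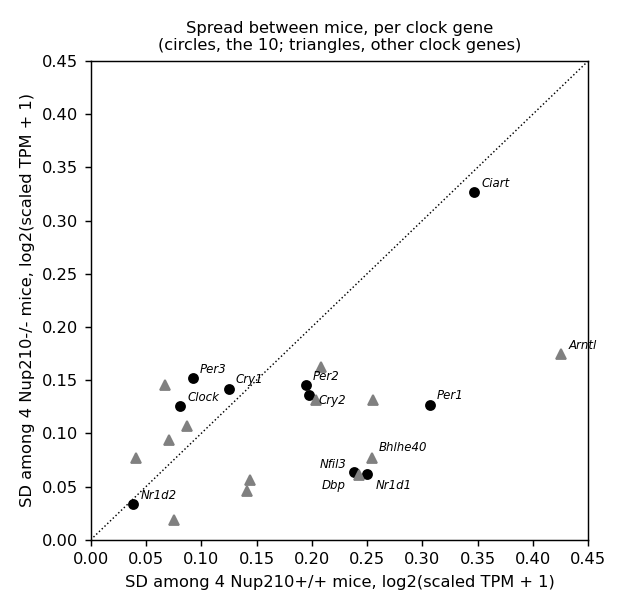
SD of log2(scaled TPM + 1) among the 4 Nup210-/- mice against that among the 4 Nup210+/+ mice, 1 point per gene (circles, the 10 clock genes, triangles, other clock genes), with equal SDs on the dotted line. Dbp, Nr1d1 and Per1 lie far below the line, and Per3, Cry1 and Clock lie above it.

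Ratios of 2 clock genes within a library do not depend on how libraries are scaled. These were taken after the values of the single genes had been seen. Of the 45 pairs of clock genes, 7, or 15.6%, had ratios of TPM that did not overlap between the genotypes. Among all pairs of the 13537 tested genes above 0 in every library the share was 8.45%. Pairs that share a gene are not independent, so the shares are a description. Each gave a two-sided exact permutation p of 0.0286, and the adjusted p over the 45 pairs was 0.184, so none passed. The clearest was Per1 over Per2. That ratio was 6.91, 6.21, 5.75 and 8.42 in Nup210-/- and 5.13, 4.17, 4.47 and 4.16 in Nup210+/+. Every Nup210-/- mouse had a larger excess of Per1 over Per2 than any control, with means of 6.82 ± 1.17 and 4.48 ± 0.46 (SD, n = 4 each). The log2 difference of 0.60 lay between 0.49 and 0.67 when each library was left out. Removing a library cannot make separated ratios overlap, so only the size of the difference was read.

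The ratio of Nr1d1 to Cry1 was 11.4, 11.8, 11.2 and 13.4 in Nup210-/- and 8.29, 8.71, 7.22 and 9.56 in Nup210+/+. All Nup210-/- values again lay above all control values, by 0.50 on the log2 scale, and by 0.43 to 0.57 with each library left out. Clock over Cry1 was 1.02 to 1.32 in Nup210-/- and 0.893 to 1.00 in Nup210+/+, a log2 difference of 0.38. Dbp over Per2 was 24.1 to 34.7 against 17.0 to 22.1, a difference of 0.56. The pairs share Per2 or Cry1 as the lower term and are not independent of one another. The remaining 3 ratios rested more on single libraries. Nr1d1 over Nr1d2 was 1.258 to 1.347 in Nup210-/- and 0.836 to 1.257 in Nup210+/+, so the ranges all but touched. Its log2 difference of 0.21 was 0.07 without Nup210+/+ replicate 3. Nr1d1 over Per2 differed by 0.46, and by 0.23 without that library. Per1 over Cry2 was nearly constant in Nup210-/-, at 1.53, 1.53, 1.52 and 1.48, and lay at 1.44, 1.10, 1.35 and 1.26 in Nup210+/+. Its log2 difference was 0.24, and 0.17 without the Nup210+/+ replicate 2 library.

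**Figure D5:**
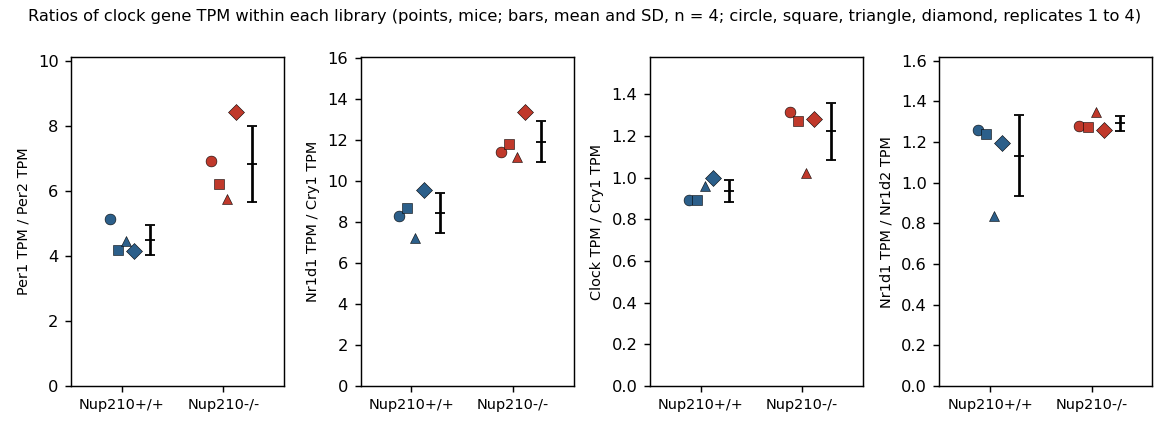
Ratios of TPM of 2 clock genes within each library, for Per1 over Per2, Nr1d1 over Cry1, Clock over Cry1 and Nr1d1 over Nr1d2, with 1 point per mouse and the mean with SD (n = 4) beside each genotype. The genotypes do not overlap in any panel, though in Nr1d1 over Nr1d2 the nearest values all but touch (1.258 against 1.257). Nup210+/+ replicate 3 (triangle, 0.836) sets the difference in Nr1d1 over Nr1d2.

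Genes downstream of the clock were read from a list of 9 output genes, which are driven by CLOCK and BMAL1 or by D-box factors in muscle or other tissues. None of the 9 passed (limma, lowest adjusted p = 0.121), with 3 higher and 2 lower at an unadjusted p under 0.05, beside 7.00% and 7.18% of all genes, and a median of 0.12. That lowest p belonged to Tcap, named after its values were seen, which encodes the Z-disc protein telethonin and is bound by CLOCK and BMAL1. Tcap was at 2286, 2327, 2364 and 2471 TPM in Nup210-/- and 1742, 1994, 2171 and 1989 TPM in Nup210+/+. The genotypes did not overlap, and the estimate was 0.36 ± 0.08 (SE), where the muscle markers were higher in the same libraries. Usp2, a deubiquitinase gene with a strong daily rhythm, had the largest estimate, 0.41 ± 0.14 (SE, adjusted p = 0.243). It was at 132, 145, 119 and 144 TPM in Nup210-/- and 107, 97.7, 155 and 84.8 TPM in Nup210+/+. As for Dbp, on TPM as deposited 3 controls lay below all Nup210-/- values and replicate 3 above them. After scaling, replicate 3 lay within the Nup210-/- range for Usp2 too, at 138 scaled TPM. Lonrf3 had the smallest estimate, -0.59 ± 0.17 (SE, adjusted p = 0.188), at 0.41 to 0.71 TPM in Nup210-/- and 0.90 to 2.01 TPM in Nup210+/+, with no overlap. At these low levels the pseudocount sets the size, and the estimate was -1.14 with a pseudocount of 0.1 in place of 1. Tcap and Lonrf3 were the 2 of 9 without overlap on scaled TPM, beside 9.38% of all genes. The list was chosen with earlier results of these data known, so its counts are a description.

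Several clock genes, Per1 among them, are also induced by glucocorticoids, so 10 glucocorticoid-responsive genes were read beside them. None passed (limma, lowest adjusted p = 0.181), with 4 higher and 1 lower at an unadjusted p under 0.05, beside 7.00% and 7.18% of all genes. Estimates were above 0 for 9 of the 10, beside 48.7% of all genes, with a median of 0.44. Pdk4, which encodes an inhibitor of pyruvate oxidation, had the largest estimate, 1.04 ± 0.59 (SE, adjusted p = 0.451). It was at 189, 120, 277 and 313 TPM in Nup210-/- and 72.2, 39.6, 361 and 135 TPM in Nup210+/+. The estimate was 0.56 without Nup210+/+ replicate 2 and 1.57 without replicate 3. On TPM as deposited the control replicate 3 was again the highest of all 8, as it was for Dbp, Per1, Per2, Per3, Cry2 and Nr1d2. That library also had the largest scaling factor of the 8, 1.12. After scaling, its Pdk4 value lay below that of Nup210-/- replicate 4 (322 against 334 scaled TPM). Zbtb16 had the smallest estimate, -0.35 ± 0.11 (SE, adjusted p = 0.203), at 14.9 to 19.5 TPM in Nup210-/- and 20.3 to 26.5 TPM in Nup210+/+. The part of glucocorticoid state in the clock values was not tested.

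The genes whose pattern over the 8 libraries was most like that of Dbp were ranked by Pearson's r on log2(scaled TPM + 1), among 8348 tested genes that averaged 5 TPM or more and were outside the clock lists. The closest were Gm14419 (r = 0.949), Rsc1a1 (0.949), Scarb2 (0.948), Smad3 (0.942) and Rnf128 (0.940). The most opposite were Fem1c (r = -0.981), mt-Rnr1 (-0.978), Ppp1r27 (-0.959), Cish (-0.954) and Col5a3 (-0.942). These values describe the ends of a ranking over 8 points that share libraries and carry no test.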

How the data were processed

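Quadriceps RNA of 8 mice was analysed, with genotypes and replicate numbers from the labels. The authors selected polyadenylated RNA, made directional single-end libraries, trimmed reads with cutadapt 2.3, aligned them to mm10 with STAR 2.7.0d and quantified genes with RSEM 1.3.1 on Ensembl annotation, and deposited TPM per gene and library. Their own test used estimated counts, which were not used here. TPM hold no read depth, so counting error could not be given.

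TPM were divided by median-of-ratios factors over 15225 genes above 0 in all libraries. The log2(scaled TPM + 1) of the 14229 genes averaging 0.5 TPM or more went into limma 3.58.1 (eBayes with trend, R 4.3.3), with p-values adjusted over all genes by Benjamini-Hochberg at 0.05. The script was tested on simulated data. Single values were tested by two-sided exact permutation over 70 labelings and correlations over 40320 pairings (numpy 2.4.6, scipy 1.17.1). Intervals are at 95%. Figures were drawn with matplotlib 3.10.9.

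The clock genes and the gene lists were chosen with earlier results of these data known. Named were the 10 clock genes, the tested genes of the other clock list except 2 that are not reported here, members of the output and glucocorticoid lists past the threshold or with the largest and smallest estimate, Nup210, and the 5 genes most and least like Dbp. Tcap was named, and the ratios were taken, after values were seen. Gene positions are from GENCODE M21 by Ensembl identifier, on GRCm38, which is mm10, and promoter windows are from RefSeq on GRCm38.p6, cut to the 250 bases before each start. Alternatives changed the pseudocount, filter, scaling, variance model, weights, replicate block and libraries used. Each library is a separate mouse. At most 201 tested genes had the same TPM in any pair of libraries, so no library was counted as a repeat of another.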

Additional observations from a re-analysis of the deposited data

Results flagged for a closer look

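Within genotypes of 4 mice, a single value was far from the other 3 in 4 of the 90 groups examined for the clock genes and the genes read beside them, where chance alone gives about 1 in 20, or 4.5. Per1 in Nup210-/- replicate 2 was at 21.67 TPM, below the other 3 mice of its genotype at 24.78 to 25.15 TPM. Bhlhe41, an E-box repressor gene, was at 15.46 TPM in Nup210+/+ replicate 4, below 22.62 to 23.47 TPM in the other 3. Fkbp5, a glucocorticoid-induced chaperone gene, was at 28.51 TPM in Nup210+/+ replicate 3, above 6.77 to 8.56 TPM in the other 3. Klf9, a clock- and glucocorticoid-regulated transcription factor gene, was at 117.40 TPM in the same library, above 81.18 to 82.86 TPM in the other 3.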

How the results depend on the processing

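The counts of genes past the threshold were 0 in the 10 clock genes, the other clock genes, the output genes and the glucocorticoid-responsive genes in all 20 alternatives, and 0 clock genes correlated with Arntl in all 14 tried. Over all genes the count of 16 was 1 with no filter on low values, 27 with a mean TPM of at least 1, 84 with library weights, and 0 with a mean TPM of at least 0.1, without the variance trend or with a replicate block (limma; 2244, 1952 and 1850 genes at an unadjusted p under 0.05), and 0 to 10 when each library was left out. The labels do not say whether same-numbered mice of the 2 genotypes were paired. Correlations of same-numbered deviations were -0.033, 0.005, 0.019 and 0.086. Taken over all tested genes, they cannot exclude a pairing that touches few genes. The 1 clock gene without overlap was 0 on TPM as deposited, and the count was 1 to 3 when each library was left out. On the same scaled values that count could not fall, since removing a library cannot make separated values overlap. Without Nup210-/- replicate 2 it was 3, as Per1 and Nr1d2 joined Nr1d1. Without Nup210+/+ replicate 3 it was 3, as Cry1 and Dbp did, and without Nup210-/- replicate 3 it was 2, with Cry1. On TPM as deposited the estimates of Nr1d2 (-0.051), Hlf (-0.076) and Bhlhe40 (-0.001) turned below 0, as did Hlf (-0.026) when rescaled without the 20 most abundant genes. With each library left out, Hlf ranged from -0.070 to 0.086, Per3 from -0.085 to 0.035, Bhlhe40 from -0.003 to 0.167 and Arntl from -0.291 to 0.019. The estimates of the other 8 clock genes kept their sign in all 20 alternatives. The cause of these shifts was not tested. The log2 differences of the 7 ratios kept their sign when a library was left out. They were 0.490 to 0.674 for Per1 over Per2, 0.431 to 0.566 for Nr1d1 over Cry1 and 0.462 to 0.640 for Dbp over Per2. Clock over Cry1 gave 0.342 to 0.463 and Per1 over Cry2 gave 0.165 to 0.297. Nr1d1 over Per2 gave 0.228 to 0.564 and Nr1d1 over Nr1d2 gave 0.068 to 0.264. The exact p was not read in these cases, since separated ratios stay separated. The number of mice and the unknown hour of collection limit what these values can show.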
